A study of Mus musculus with 12 samples.

Results

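Lymphoid-primed progenitor genes were followed in LSKs, the lineage-negative, Sca-1+, c-Kit+ cells of mouse bone marrow that hold the hematopoietic stem cells and multipotent progenitors. The group comprises 9 genes, chosen by name from the 53465 genes of the deposited expression table: the transcription factor genes Satb1, Ikzf1, Ikzf3, Tcf3 and Gata3, the receptor genes Notch1, Ccr7 and Ccr9, and Cd27. The study asked how loss of Tespa1, a gene named for its expression in thymocytes, affects hematopoietic stem and progenitor cells at rest and under stress. RNA-seq was made from LSKs of 4 groups of 3 libraries each. The Tespa1-/- mice carry the allele B6.129S-Tespa1tm1Smoc backcrossed to C57BL/6, in which no tissue-specific Cre is involved, and the controls are labelled littermate wild type and are called Tespa1+/+ here. Untreated groups of both genotypes received no agent according to their labels, and the 5-FU groups were taken at day 9 after a single intraperitoneal dose of 150 mg/kg 5-fluorouracil (5-FU), an antimetabolite that kills dividing cells. The mice of the study were male and 8 to 10 weeks old unless middle-aged mice were studied. The labels do not say whether each library came from a separate mouse or from a pool, so the p-values measure the spread between these libraries, part of which may be technical.

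Early lymphoid priming takes place inside the LSK gate. Progenitors with much Flt3 on their surface begin to transcribe genes of the lymphoid lineages while they still keep myeloid potential, and they give rise to common lymphoid progenitors and to the cells that seed the thymus. The E protein encoded by Tcf3 and the zinc finger protein Ikaros encoded by Ikzf1 are needed for that priming, Satb1 encodes a chromatin organizer that favours lymphoid output from stem cells, Notch1 encodes the receptor that commits progenitors to the T lineage, Ccr7 and Ccr9 encode chemokine receptors used to settle in the thymus, and Gata3 encodes a factor required by early T cells and innate lymphoid cells.

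Library totals ran from 22118154 to 28275079 counts on genes. Between replicates of a group the median chi-square across genes was 2.08 to 5.87, beside 0.455 for sampling noise, so that replicates differed beyond that noise. The targeted gene was lower in both Tespa1-/- groups, with a log2 fold change of -0.42 in untreated LSKs (adjusted p = 0.0316) and -1.47 after 5-FU (adjusted p = 9.4e-05, both by the quasi-likelihood method in edgeR, Benjamini-Hochberg adjusted), but its reads were not absent. A list of 8 LSK markers, among them Kit, Ly6a, Cd34 and Flt3, was detected in every group. The sum of 10 T cell markers was highest in untreated Tespa1+/+ libraries, at 27.5 to 36.7 CPM with Cd28 at 22.4 CPM. Cd3d and Cd8b1 were at 0 in both Tespa1+/+ groups, while no gene of that list was at 0 in every Tespa1-/- library after 5-FU. Levels are given as CPM, counts scaled to library size with TMM factors over the 12 libraries, which compare a gene between libraries, and as the authors' FPKM, which compare genes per length. The smallest two-sided p that an exact permutation test of 3 libraries against 3 can give is 0.1. Genes are therefore called from a model fitted across all genes, at an adjusted p below 0.05.

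In untreated Tespa1+/+ LSKs the members fell into an abundant set of 5 and a scarce set of 4. By FPKM, Notch1 was highest at 31.0 ± 1.65 (SD, n = 3), followed by Cd27 at 23.9 ± 2.06, Ikzf1 at 18.7 ± 0.579, Tcf3 at 14.6 ± 0.910 and Satb1 at 9.42 ± 0.313 FPKM. The scarce set held Gata3 at 0.719 ± 0.157, Ccr7 at 0.709 ± 0.168, Ccr9 at 0.303 ± 0.0402 and Ikzf3 at 0.0726 ± 0.0482 FPKM. Of the neighbours in that order, Gata3 and Ccr7 had overlapping libraries and all others were apart. The lengths behind the deposited FPKM were longer than the annotated exons for most members (22669 bases against 10260 for Ccr9, for example). Per kilobase of annotated exon, Cd27 led at 44.2 CPM per kilobase, and Ikzf1, Notch1 and Tcf3 followed at 35.8, 35.2 and 34.7 with overlapping libraries, so the order within the abundant set depended on the length used.

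In untreated Tespa1-/- LSKs the FPKM order of the members was the same, except that the libraries of Ccr9 and Ikzf3 overlapped. After 5-FU, Tcf3 led in both genotypes, at 20.5 ± 3.35 FPKM (SD, n = 3) in Tespa1+/+ and 22.2 ± 4.93 FPKM in Tespa1-/- LSKs, by either length. In Tespa1+/+ LSKs its libraries overlapped those of Cd27 by FPKM, as did those of Cd27 and Notch1, and stood apart from Cd27 per kilobase of annotated exon. Ikzf3 was 8th in Tespa1+/+ LSKs after 5-FU at 0.0978 ± 0.0635 FPKM, with libraries that overlapped those of Ccr9, and 6th in Tespa1-/- LSKs at 1.83 ± 0.245 FPKM, above Gata3, Ccr7 and Ccr9. The abundant set thus changed its inner order with 5-FU. Between the genotypes after 5-FU, by FPKM, Ikzf1 stood 4th in Tespa1+/+ and 2nd in Tespa1-/- LSKs, and Cd27 stood 2nd and 4th.

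**Figure D1:**
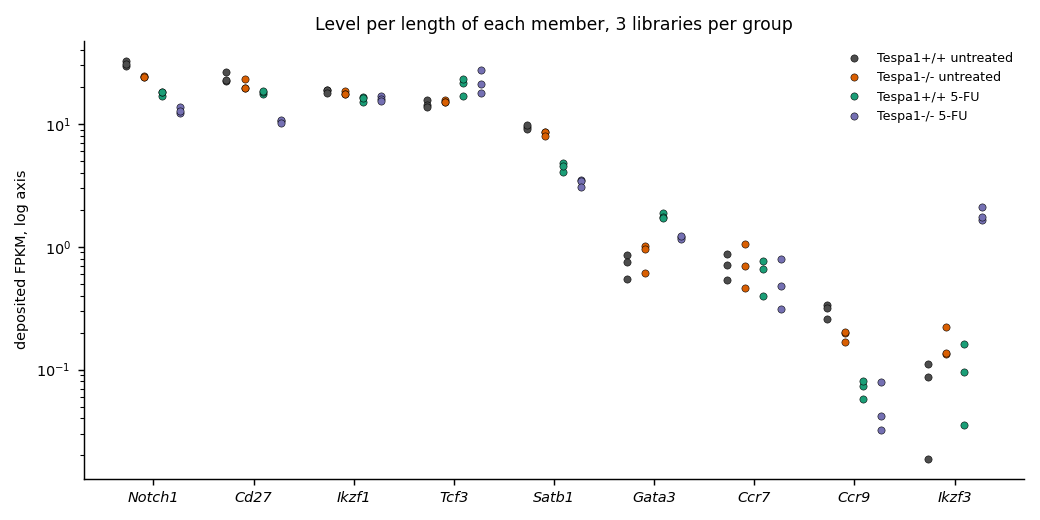
Deposited FPKM (log axis) of the 9 members, with 1 point per library and 3 libraries in each of the 4 groups. Notch1, Cd27, Ikzf1, Tcf3 and Satb1 lie above 3 FPKM in every library, and Ikzf3 rises above 1 FPKM in the 3 Tespa1-/- libraries after 5-FU.

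The comparison of 5-FU with untreated LSKs in Tespa1+/+ mice asked how the genes behave in wild-type cells recovering from 5-FU. Of the 9 members, which all passed the filter on low counts, 5 fell and 2 rose. Satb1, Notch1, Ccr9, Cd27 and, by a small step, Ikzf1 were lower, Gata3 and Tcf3 were higher, and Ikzf3 and Ccr7 were not called. Over all 17002 genes tested, 7.95% were called, 4.18% lower and 3.77% higher. In the same 7 members the libraries of the groups did not overlap, against 15.5% of all genes for lower and 13.2% for higher. The median log2 fold change of the members was -0.27, beside 0.01 for all genes tested.

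Satb1 lies on chromosome 17 from 51736187 to 51833290 (GRCm38, minus strand). It had 321, 307 and 328 CPM in the untreated Tespa1+/+ libraries and 156, 133 and 147 CPM after 5-FU. All 3 libraries after 5-FU were below every untreated library, and the level fell 2.17-fold (log2 fold change -1.12, SE 0.07, adjusted p = 3.1e-05 by edgeR's quasi-likelihood test, Benjamini-Hochberg adjusted, as are all adjusted p-values below). In bulk RNA such as this, fewer cells of a type and less RNA per cell cannot be told apart.

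Ikzf1 (chromosome 11, 11685003 to 11772926) moved least among the called genes, from 213, 209 and 199 CPM to 162, 176 and 172 CPM. The groups did not overlap, but the log2 fold change was only -0.27 (SE 0.06, adjusted p = 0.0275), and the call was lost in 5 of the 6 fits with 1 library removed, with adjusted p up to 0.105. Ikzf3 (chromosome 11, 98464902 to 98546031), which encodes the Ikaros relative Aiolos of later B, T and NK cells, was close to the detection limit, with 30, 19 and 4 counts in untreated libraries and 39, 23 and 8 counts after 5-FU. These counts overlapped, and the interval of the log2 fold change, -1.51 to 2.26, allows a change in either direction.

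Tcf3 (chromosome 10, 80409514 to 80433647) rose from 152, 136 and 133 CPM to 200, 154 and 213 CPM. The lowest library after 5-FU lay just above the highest untreated one, and the log2 fold change of 0.45 (SE 0.11, adjusted p = 0.0436) was close to the threshold: the call was lost in 5 of the 6 fits without 1 library, with adjusted p up to 0.145. Gata3 (chromosome 2, 9857078 to 9890034) rose 2.38-fold, from 4.74, 4.05 and 2.98 CPM to 9.80, 9.08 and 8.85 CPM (log2 fold change 1.25, SE 0.24, adjusted p = 0.0139). The adjusted p of Gata3 was 0.0571 without replicate 1 and 0.0517 without replicate 2 of the Tespa1+/+ libraries after 5-FU. Innate lymphoid cells express Gata3, and a list of 8 NK and innate lymphoid markers summed to 3.47 to 6.09 CPM in the untreated libraries and 15.2 to 17.2 CPM after 5-FU, led by Il1rl1 at 7.78 CPM, with Gzma at 0 after 5-FU and Ncr1 at 0 before. The part of such cells in the Gata3 result was not tested.

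Notch1 (chromosome 2, 26457903 to 26516663) had 482, 526 and 494 CPM in untreated Tespa1+/+ LSKs and 264, 279 and 281 CPM after 5-FU. The groups were far apart, and the level fell 1.8-fold (log2 fold change -0.85, SE 0.06, adjusted p = 3.7e-05). Ccr9 (chromosome 9, 123678439 to 123784330) showed the largest fold among the members, falling 4.44-fold from 7.81, 7.30 and 5.92 CPM to 1.28, 1.62 and 1.77 CPM (log2 fold change -2.15, SE 0.29, adjusted p = 0.00211). It had only 33 to 43 counts per library after 5-FU, and 18.8% of its annotated exon bases are shared with AC165425.1 on the opposite strand, which had at most 41 counts in any library. The sources used here do not say whether the counting used strand. Ccr7 (chromosome 11, 99144196 to 99155077), the other chemokine receptor, had 20 to 49 counts in these 6 libraries, and its interval of -1.45 to 0.92 on the log2 scale covers both directions.

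Cd27 (chromosome 6, 125232622 to 125237010), which encodes a costimulatory receptor of the TNF receptor family present on multipotent and lymphoid-primed progenitors, fell 1.37-fold. Its levels were 98.1, 98.0 and 112 CPM in untreated and 72.6, 74.5 and 75.7 CPM in treated Tespa1+/+ libraries (log2 fold change -0.45, SE 0.09, adjusted p = 0.0119). Without replicate 1 of the treated libraries the adjusted p was 0.0516. Without that library 3 of the 9 members were called in place of 7, and 783 of 17846 genes in place of 1352 of 17002. Without replicate 2 or 3 of the treated libraries, 5 members and 801 or 816 genes were called. The LSK marker list summed to 1510 to 1580 CPM before and 1182 to 1200 CPM after 5-FU, and 2 of its 8 genes were called lower and 1 higher.

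**Figure D2:**
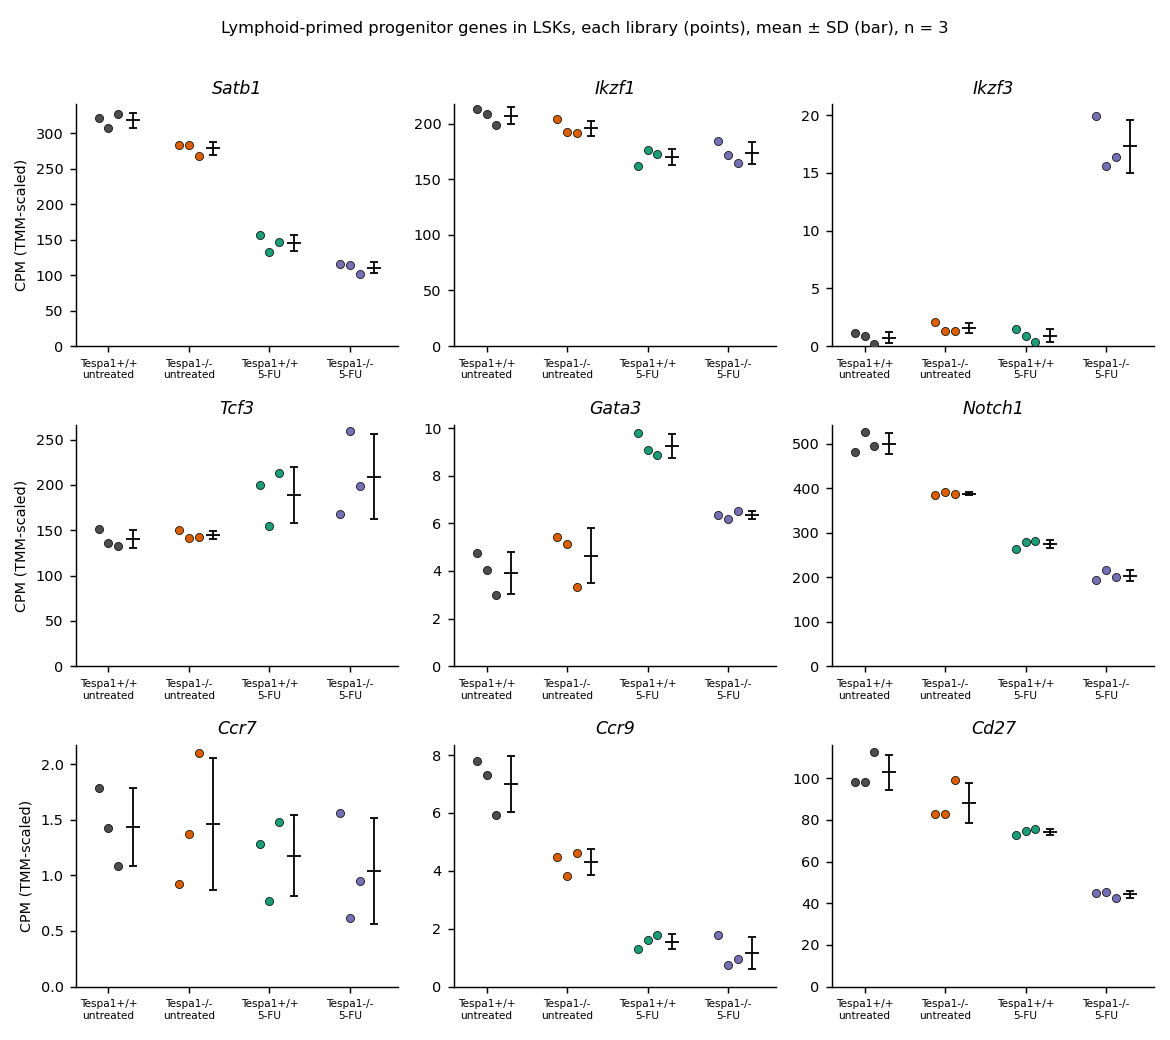
CPM of each member in every library (points, 3 per group), with the group mean and SD as a bar on the right of the points. Satb1, Notch1, Ccr9 and Cd27 step down from the untreated to the 5-FU groups, and Ikzf3 exceeds 15 CPM in the 3 Tespa1-/- libraries after 5-FU, where no other library reaches 3 CPM.

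In Tespa1-/- LSKs, 4 members fell with 5-FU and 2 rose. Satb1, Notch1, Ccr9 and Cd27 were again lower and Tcf3 again higher, and here Ikzf3 rose, while Ikzf1, Gata3 and Ccr7 were not called. Over all 17228 genes tested, 19.4% were called, 8.64% lower and 10.7% higher. Libraries did not overlap in 8 members, 5 lower and 3 higher, against 18.8% and 19.8% of all genes. The median log2 fold change of the members was -0.49, beside -0.01 for all genes.

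Ikzf3 rose 11-fold, from 48, 29 and 30 counts in the untreated Tespa1-/- libraries to 550, 406 and 364 counts after 5-FU. In CPM this was 2.11, 1.29 and 1.31 before and 19.9, 15.6 and 16.4 after, a gap wider than any spread within a group (log2 fold change 3.46, SE 0.24, adjusted p = 2.7e-05). Markers of other cells moved in the same comparison. The later neutrophil list (10 genes) summed to 4.70 to 5.86 CPM before and 1050.0 to 1057 CPM after 5-FU and the erythroid list (8 genes) to 15.4 to 21.4 and 404 to 430.4 CPM, with every gene of both called higher. The B cell list went from 24.2 to 32.5 CPM to 159 to 181 CPM, with 5 of 8 called higher, and the NK and innate lymphoid list from 12.9 to 13.4 CPM to 42.2 to 57.4 CPM, with 7 of 8 called higher. Between the untreated genotypes, 4 neutrophil, 6 erythroid, 4 B cell and 5 NK and innate lymphoid genes passed the filter on low counts. The others passed it here through the treated libraries, so that their calls were largely fixed in advance. The LSK list went from 1262 to 1303 CPM to 733 to 776 CPM, with 3 of its 8 genes called lower and 2 higher. The part of these cell types in the changes of the members with 5-FU was not tested.

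Tcf3 rose in Tespa1-/- LSKs, from 142 to 150 CPM to 168, 199 and 260 CPM (log2 fold change 0.52, SE 0.13, adjusted p = 0.0249), and the call was lost without any 1 of the 3 untreated libraries, with adjusted p of up to 0.0884. Gata3 had 5.44, 5.14 and 3.32 CPM untreated and 6.35, 6.16 and 6.53 CPM after 5-FU. The groups did not overlap, but the log2 fold change of 0.45 did not pass the test (adjusted p = 0.218).

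Satb1 fell 2.53-fold in Tespa1-/- LSKs, from 284, 284 and 268 CPM to 116, 114 and 102 CPM (log2 fold change -1.34, SE 0.06, adjusted p = 2.7e-06). Notch1 fell 1.91-fold, from 385, 392 and 387 CPM to 195, 217 and 199.8 CPM (log2 fold change -0.93, SE 0.05, adjusted p = 5.7e-06). For both genes the 3 treated libraries stood together and well below the untreated ones. Ccr9 fell 3.72-fold, from 4.48, 3.81 and 4.63 CPM to 1.78, 0.732 and 0.945 CPM (log2 fold change -1.89, SE 0.37, adjusted p = 0.00722). Cd27 fell 2.0-fold, from 82.9, 82.6 and 99.3 CPM to 44.8, 45.4 and 42.5 CPM (log2 fold change -1.0, SE 0.09, adjusted p = 9.1e-05). Ikzf1 changed by -0.18 on the log2 scale without passing the test (adjusted p = 0.0607), although its 204, 192 and 192 CPM untreated lay above its 184, 172 and 165 CPM after 5-FU. Ccr7 had 16 to 48 counts in these libraries, with an interval of -1.64 to 0.66.

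Satb1, Notch1, Ccr9 and Cd27 were the members called lower with 5-FU in both genotypes, and their promoters are shown for that reason. RefSeq (GRCm38.p6) gives 12 start sites for 7 of the members, 5 of them for Satb1 and 2 for Ikzf1, and the 250 bases before each start were searched for letters that E proteins, Ikaros and GATA factors are known to bind. Each sequence runs 5′ to 3′ on the strand of its gene, which is the minus strand for Satb1, Notch1 and Cd27 and the plus strand for Ccr9, and capitals mark the E-box CANNTG, which reads the same on both strands. The positions are chr17:51833291-51833540 for the most upstream of the Satb1 starts, chr2:26503823-26504072 for Notch1, chr9:123766961-123767210 for Ccr9 and chr6:125237028-125237277 for Cd27.
Satb1: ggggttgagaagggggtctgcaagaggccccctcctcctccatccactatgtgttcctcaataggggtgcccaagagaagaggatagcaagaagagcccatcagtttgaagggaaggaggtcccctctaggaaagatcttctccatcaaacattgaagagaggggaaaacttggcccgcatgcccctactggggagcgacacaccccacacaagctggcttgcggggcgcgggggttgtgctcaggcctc
Notch1: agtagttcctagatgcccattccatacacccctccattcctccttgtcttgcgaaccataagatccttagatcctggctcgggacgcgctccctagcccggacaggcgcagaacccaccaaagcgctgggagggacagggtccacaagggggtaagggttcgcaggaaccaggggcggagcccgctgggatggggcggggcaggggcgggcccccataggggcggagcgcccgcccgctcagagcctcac
Ccr9: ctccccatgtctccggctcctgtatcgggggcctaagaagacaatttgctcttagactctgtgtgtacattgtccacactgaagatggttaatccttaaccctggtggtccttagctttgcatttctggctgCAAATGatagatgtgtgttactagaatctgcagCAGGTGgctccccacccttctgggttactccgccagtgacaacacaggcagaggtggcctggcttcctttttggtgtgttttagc
Cd27: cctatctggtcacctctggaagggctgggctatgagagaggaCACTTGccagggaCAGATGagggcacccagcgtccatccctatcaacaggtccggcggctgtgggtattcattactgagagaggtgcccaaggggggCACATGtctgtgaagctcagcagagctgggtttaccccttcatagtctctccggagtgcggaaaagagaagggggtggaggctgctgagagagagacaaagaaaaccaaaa

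The Cd27 window held 3 E-boxes, the Ccr9 window 2, and the Notch1 window and the shown Satb1 window none. Of the other Satb1 windows, 1 held 2 E-boxes and 1 held 1, and the Tcf3 window held 1. Thus 5 of the 12 windows held an E-box, beside 66.2% of all 32851 promoter windows of this length. The E-box form CAGCTG occurred in 1 Satb1 window (13.0% of all windows), the Ikaros letters TGGGAA, searched on both strands, in 1 Satb1 window (21.6%), and the GATA letters AGATAA, also on both strands, in none of the 12 (9.99%). No searched motif occurred in all 4 of the windows shown.

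The comparison of Tespa1-/- with Tespa1+/+ LSKs in untreated mice asked which members differ with the genotype at rest. Notch1 was the 1 member called, and it was lower. It had 482, 526 and 494 CPM in Tespa1+/+ and 385, 392 and 387 CPM in Tespa1-/- libraries, with no overlap (1.28-fold lower, log2 fold change -0.36, SE 0.05, adjusted p = 0.00443). The 8 others were not called. Over all 17055 genes tested, 5.23% were called, 3.59% lower and 1.64% higher, and the median log2 fold change of the members was -0.07 beside 0.01 for all genes.

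Libraries of the untreated groups did not overlap in 4 members, Satb1, Notch1 and Ccr9 lower and Ikzf3 higher, against 14.1% of all genes for lower and 11.4% for higher. Satb1 had 307 to 328 CPM in Tespa1+/+ and 268 to 284 CPM in Tespa1-/- libraries (log2 fold change -0.18, SE 0.05, adjusted p = 0.0774). DESeq2 called it (adjusted p = 0.0282). Ccr9 had 5.92 to 7.81 CPM against 3.81 to 4.63 CPM (log2 fold change -0.69, SE 0.20, adjusted p = 0.107). The intervals of both, -0.29 to -0.07 for Satb1 and -1.15 to -0.22 for Ccr9, were below 0 before adjustment over all genes. Ikzf3 had 0.181 to 1.09 CPM against 1.29 to 2.11 CPM, with an interval of -0.30 to 2.60. Its raw counts, 4 to 30 against 29 to 48, did overlap.

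Cd27 at rest had 98.0 to 112 CPM in Tespa1+/+ and 82.6 to 99.3 CPM in Tespa1-/- libraries, which overlapped (log2 fold change -0.21, adjusted p = 0.299). Ikzf1, Tcf3 and Ccr7 differed by -0.07, 0.06 and 0.04 on the log2 scale, with intervals of -0.18 to 0.05, -0.08 to 0.20 and -0.99 to 1.08. For Ikzf1 and Tcf3 these bounds leave room for a small difference, and for Ccr7, with 21 to 49 counts a library, for a large one in either direction. Gata3 differed by 0.25 (adjusted p = 0.704). The LSK marker list summed to 1510 to 1580 CPM in untreated Tespa1+/+ and 1262 to 1303 CPM in untreated Tespa1-/- libraries, and its part in the Notch1 result was not tested.

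After 5-FU, the same comparison of genotypes called 4 members. Ikzf3 was far higher in Tespa1-/- LSKs, and Cd27, Notch1 and Satb1 were lower. Over all 17239 genes tested, 13.1% were called, 7.34% higher and 5.78% lower. Libraries did not overlap in 5 members, 1 higher and 4 lower with Gata3 as the addition, against 17.2% and 15.9% of all genes. The median log2 fold change of the members was -0.39, beside -0.01 for all genes.

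After 5-FU the counts of Ikzf3 were 39, 23 and 8 in Tespa1+/+ and 550, 406 and 364 in Tespa1-/- libraries. It was 18.9-fold higher by the fitted model (log2 fold change 4.24, SE 0.42, adjusted p = 2.3e-04), and the fits that left out 1 library gave 3.85 to 4.81. Several lists of other cell types were higher in the same libraries. The sum of 10 later neutrophil genes was 3.66 to 8.40 CPM in Tespa1+/+ and 1050.0 to 1057 CPM in Tespa1-/- libraries, with S100a9 at 314 CPM and all 10 genes called higher, and the sum of 8 erythroid genes was 19.7 to 31.1 against 404 to 430.4 CPM, all 8 called higher. For 5-FU in Tespa1+/+ LSKs, 5 of the 10 neutrophil and 5 of the 8 erythroid genes passed the filter on low counts. The others passed it here through the Tespa1-/- libraries, so that their calls were largely fixed in advance. In Tespa1+/+ libraries the neutrophil genes Cd177, Fcnb and Retnlg were at 0.

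Among cells that are known to express Aiolos, the sum of 8 B cell markers was 141.5 to 144 CPM in Tespa1+/+ and 159 to 181 CPM in Tespa1-/- libraries after 5-FU, with 2 called higher. The B cell list was at 41.5 to 49.1 CPM in untreated Tespa1+/+ and 24.2 to 32.5 CPM in untreated Tespa1-/- libraries. The sum of 8 NK and innate lymphoid markers was 15.2 to 17.2 against 42.2 to 57.4 CPM, with 3 called higher. The sum of 10 T cell markers was 12.8 to 14.6 against 13.2 to 20.8 CPM, with 2 called higher. Cd3d, Cd3e and Cd8b1 were at 0 in every Tespa1+/+ library. No gene of the list was at 0 in every Tespa1-/- library, although Cd3d was at 0 in replicate 1. The sum of 8 dendritic cell markers was 43.0 to 57.8 against 68.5 to 84.6 CPM, with 2 called higher and Cd209a at 0 in both groups. The part of these cell types in the Ikzf3 result was not tested.

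**Figure D3:**
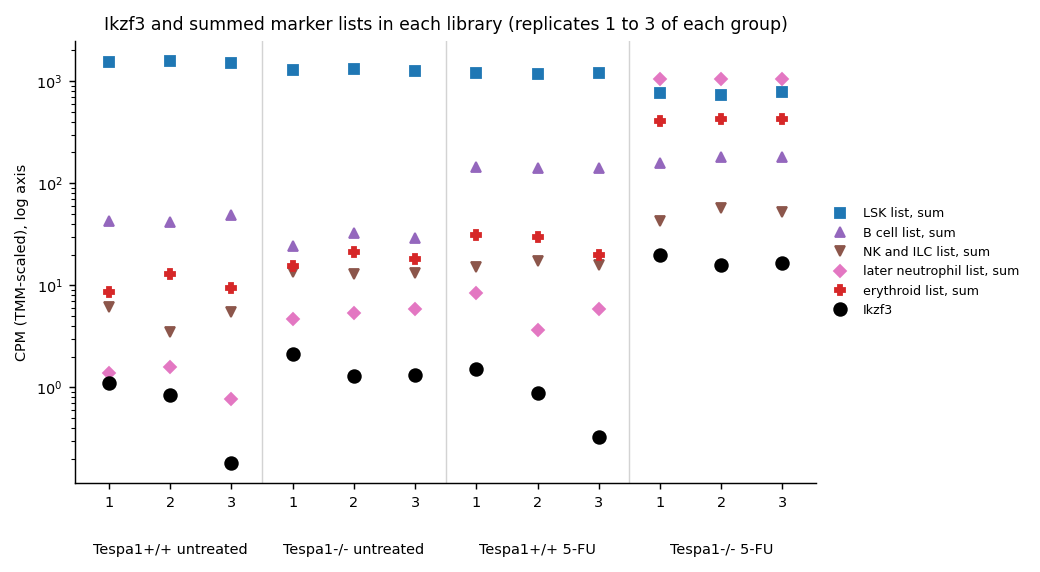
CPM (log axis) of Ikzf3 and the summed CPM of 5 marker lists in each of the 12 libraries, ordered by group. In the 3 Tespa1-/- libraries after 5-FU, Ikzf3, the later neutrophil sum (1050.0 to 1057 CPM) and the erythroid sum (404 to 430.4 CPM) all lie above every other library, and the LSK sum (733 to 776 CPM) lies below.

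Cd27 had 72.6, 74.5 and 75.7 CPM in Tespa1+/+ and 44.8, 45.4 and 42.5 CPM in Tespa1-/- LSKs after 5-FU. The replicates of each group lay within a few CPM of each other and the groups were far apart (1.68-fold lower, log2 fold change -0.75, SE 0.08, adjusted p = 3.4e-04). Notch1 had 264, 279 and 281 CPM against 195, 217 and 199.8 CPM (1.35-fold lower, log2 fold change -0.43, SE 0.06, adjusted p = 0.00141). Satb1 had 156, 133 and 147 CPM against 116, 114 and 102 CPM (1.31-fold lower, log2 fold change -0.39, SE 0.08, adjusted p = 0.0122), and without replicate 3 of the Tespa1-/- libraries the adjusted p was 0.052. The LSK marker list was lower in the same libraries, at 1182 to 1200 against 733 to 776 CPM with 5 of 8 genes called lower, and its part in these results was not tested.

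Gata3 had 9.80, 9.08 and 8.85 CPM in Tespa1+/+ and 6.35, 6.16 and 6.53 CPM in Tespa1-/- libraries after 5-FU, apart from each other but not called (log2 fold change -0.54, SE 0.19, adjusted p = 0.095). Ikzf1 at 162 to 176 against 165 to 184 CPM and Tcf3 at 154 to 213 against 168 to 260 CPM overlapped, with intervals of -0.11 to 0.17 and -0.22 to 0.50 on the log2 scale. Ccr7 and Ccr9 had at most 49 counts in any of these 6 libraries, and their intervals, -1.47 to 1.13 and -1.60 to 0.74, cover both directions.

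**Figure D4:**
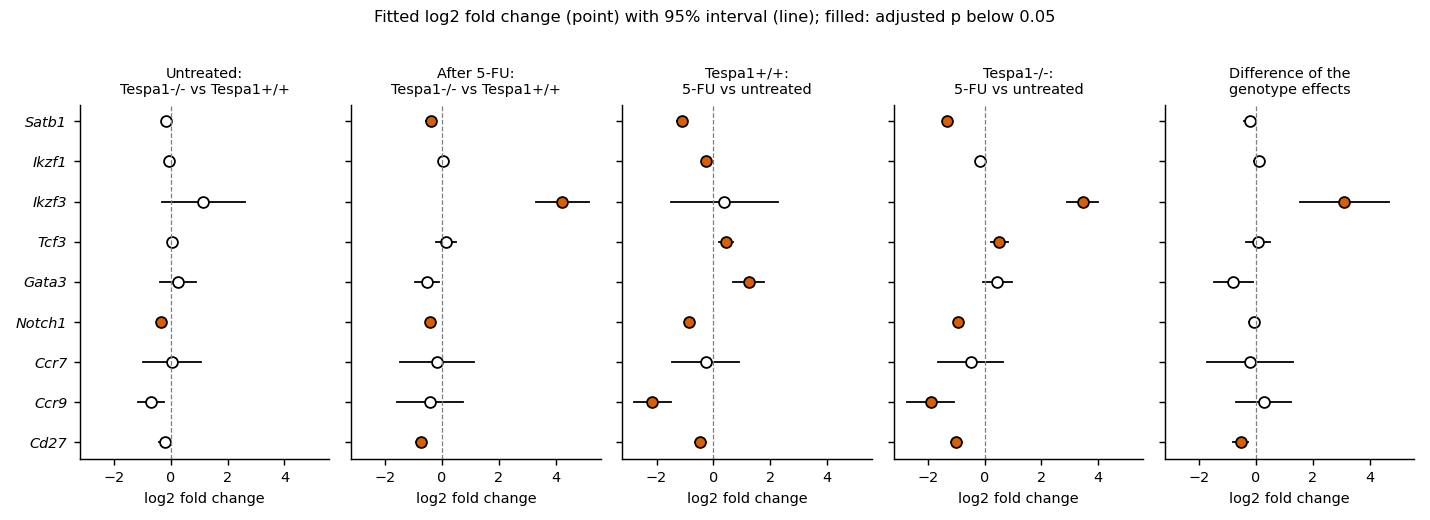
Fitted log2 fold change of each member (point) with its 95% interval (line) in the 4 comparisons and, in the last panel, the genotype difference after 5-FU minus that in untreated LSKs. Filled points have an adjusted p below 0.05. Ikzf3 stands at 4.24 after 5-FU and Ccr9 at -2.15 with 5-FU in Tespa1+/+ LSKs.

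Whether the genotype difference itself changed with 5-FU was tested as an interaction over the 12 libraries. It was called for Ikzf3 and for Cd27, and for 5.01% of all 18696 genes tested, 3.02% with a higher and 1.99% with a lower value. For Ikzf3, the genotype difference after 5-FU was 3.10 log2 units above that in untreated LSKs (SE 0.73, 95% interval 1.53 to 4.67, adjusted p = 0.0267). For Cd27 it was lower by 0.53 log2 units (interaction -0.53, SE 0.12, 95% interval -0.79 to -0.27, adjusted p = 0.0232). Neither call was firm: the Ikzf3 call was lost in 8 and the Cd27 call in 4 of the 12 fits with 1 library removed, with adjusted p up to 0.0819 and 0.0605, and both values kept their direction in all of them.

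For the other members the interaction was not called. Gata3 had -0.79, with an interval of -1.49 to -0.09 and an adjusted p of 0.201. Notch1, which was lower in Tespa1-/- LSKs at rest and after 5-FU, had an interaction of -0.07 with an interval of -0.23 to 0.09. Satb1 had -0.21 (adjusted p = 0.266), Ikzf1 0.10, Tcf3 0.09, Ccr7 -0.22 and Ccr9 0.27 on the log2 scale. At the study's thresholds, an unadjusted P below 0.05 with a fold change above 1.5, 4 members were called for 5-FU in Tespa1+/+ LSKs (9.88% of all genes) and 5 in Tespa1-/- LSKs (14.4%), 1 between the genotypes at rest (Ccr9; 6.74%) and 2 after 5-FU (Ikzf3 and Cd27; 11.7%), and 2 in the interaction (Ikzf3 and Gata3; 10.4%). The comparisons given here share libraries, since each group enters 2 of the pairwise comparisons.

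Around Notch1, 29 other genes of the Notch pathway were examined, of which 24 to 27 passed the filter in each pairwise comparison. In untreated LSKs 3 were called, each lower in Tespa1-/-, and after 5-FU 4 were lower and 2 higher. Over all genes tested, 5.23% were called at rest and 13.1% after 5-FU. The list's median log2 fold change was -0.04 at rest and -0.12 after 5-FU, beside 0.01 and -0.01 for all genes. The LSK marker list was lower in Tespa1-/- libraries of both treatments, as given above, and its part in these results was not tested. Hes1, a transcriptional repressor and classical Notch target, had 29.3, 31.5 and 27.0 CPM in untreated Tespa1+/+ and 11.6, 11.4 and 11.8 CPM in untreated Tespa1-/- libraries (log2 fold change -1.32, SE 0.12, adjusted p = 5.6e-04). After 5-FU it had 26.9, 31.1 and 29.7 against 17.0, 17.7 and 13.0 CPM (log2 fold change -0.88, SE 0.15, adjusted p = 0.00541). The groups did not overlap in either treatment. Nrarp, another Notch target of the list, was not called at rest or after 5-FU (log2 fold changes -0.35 and 0.43, adjusted p = 0.425 and 0.291). Jag2, a Notch ligand, was lower in both treatments, at rest at 27.1 ± 3.42 CPM in Tespa1-/- against 77.2 ± 3.37 CPM in Tespa1+/+ LSKs (SD, n = 3; log2 fold change -1.5, adjusted p = 1.6e-04) and after 5-FU by a log2 fold change of -0.75 (adjusted p = 0.00825). Maml2, a coactivator of the Notch transcription complex, was also lower in both, at rest by -0.59 (adjusted p = 0.0266) and after 5-FU at 20 ± 2.99 CPM in Tespa1-/- against 35.4 ± 3.2 CPM in Tespa1+/+ LSKs (log2 fold change -0.82, adjusted p = 0.0052). The members of the list that were higher after 5-FU were Notch4, a receptor at 0.782 to 4.20 CPM in these libraries, and Psen2, a subunit of the protease that releases the Notch intracellular domain (log2 fold changes 1.8 and 0.67, adjusted p = 0.0293 and 0.0138).

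With 5-FU, 2 Notch pathway genes were lower and 2 higher in Tespa1+/+ LSKs, and 4 and 4 in Tespa1-/- LSKs. Over all genes, 7.95% and 19.4% were called. Jag2 fell in Tespa1+/+ LSKs from 77.2 ± 3.37 to 40.8 ± 6.25 CPM (SD, n = 3; log2 fold change -0.90, adjusted p = 0.00174) and Hes1 had 29.3 ± 2.23 CPM untreated and 29.2 ± 2.09 CPM after 5-FU, overlapping in its libraries. The genes that were higher in Tespa1+/+ LSKs were Heyl, a repressor of the HES and HEY family, at 0.0394 ± 0.0368 CPM untreated and 2.77 ± 0.615 CPM after 5-FU (adjusted p = 0.002), and Adam10, a protease that cleaves Notch receptors (0.47, adjusted p = 0.00192). Heyl had at most 0.073 CPM in an untreated Tespa1+/+ library. It passed the filter on low counts only through the treated libraries, where it was high. In Tespa1-/- LSKs Nrarp, a Notch target, rose by 1.01 (adjusted p = 0.00623). The interaction was called for Jag2 (0.75, SE 0.18, adjusted p = 0.0299), the 1 gene of the list for which it was.

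**Figure D5:**
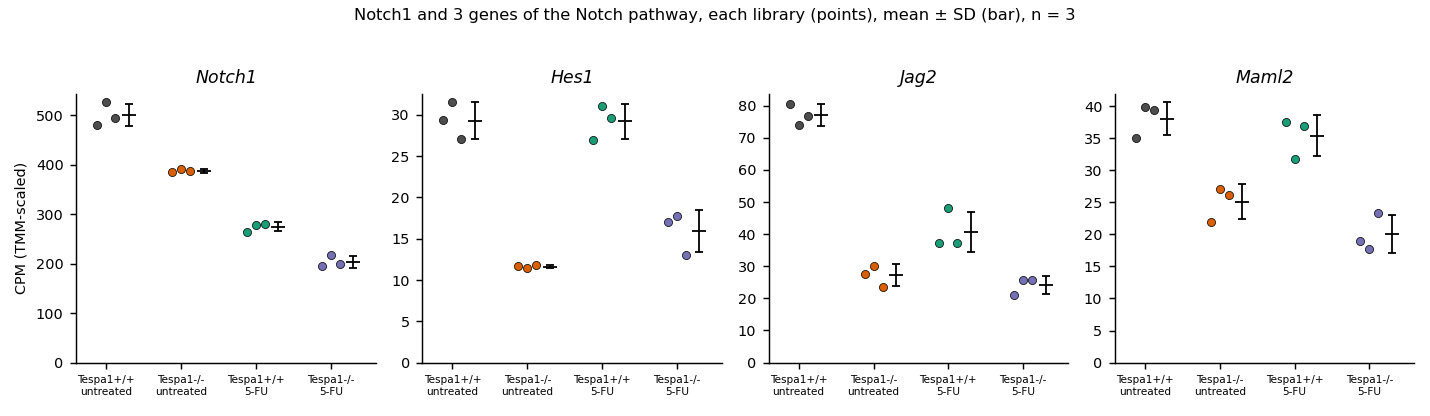
CPM of Notch1, Hes1, Jag2 and Maml2 in every library (points, 3 per group) with the group mean and SD as a bar. Hes1 is lower in both Tespa1-/- groups than in both Tespa1+/+ groups, and Jag2 stands at 77.2 CPM in untreated Tespa1+/+ and at 24.2 to 40.8 CPM in the means of the other groups.

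Among 10 partners of Tcf3, the other E proteins, the ID proteins that block them and the SCL complex, 0 were called between the genotypes at rest by edgeR's quasi-likelihood test (4 at an unadjusted p below 0.05), and 2 were lower in Tespa1-/- LSKs after 5-FU, Tcf4 (-0.39, adjusted p = 0.0376) and Lmo2 (-0.27, adjusted p = 0.0204). With 5-FU, Tal1 rose in Tespa1+/+ LSKs (0.75, adjusted p = 9.0e-04), the 1 gene of the list called there, and 3 rose in Tespa1-/- LSKs, Id3 and Id1 most (1.02 and 0.97, adjusted p = 0.0122 and 0.0231). Of 12 other Ikaros family and NuRD complex genes, 1 was called at rest, the deacetylase gene Hdac1 (-0.44, adjusted p = 0.0369), and 3 after 5-FU, of which Ikzf2, encoding the Ikaros relative Helios, was lower at 53.4 ± 6.03 against 78.9 ± 9.28 CPM (SD, n = 3; -0.56, adjusted p = 0.0112). Chd4 and Mta2 were higher by 0.12 and 0.19 (adjusted p = 0.0439 and 0.0438). Ikzf3 and Ikzf2, 2 relatives of Ikaros, thus lay on opposite sides of 0 in Tespa1-/- LSKs after 5-FU while Ikzf1 was not called. Beside the counts of both lists, 5.23% of all genes were called between the genotypes at rest and 13.1% after 5-FU. With 5-FU, 7.95% of all genes were called in Tespa1+/+ and 19.4% in Tespa1-/- LSKs.

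Of 23 other genes of early lymphoid priming, 9 were called in untreated Tespa1-/- LSKs, each of them lower, and after 5-FU 8 were lower and 2 higher. Over all genes, 5.23% were called at rest and 13.1% after 5-FU. The list's median log2 fold change was -0.26 at rest and -0.15 after 5-FU, beside 0.01 and -0.01 for all genes. Flt3, the receptor that marks lymphoid-primed progenitors and that also stands in the LSK list, had 614 ± 4.54 CPM in untreated Tespa1+/+, 493 ± 2.26 in untreated Tespa1-/-, 314 ± 9.37 in treated Tespa1+/+ and 169 ± 6.74 CPM in treated Tespa1-/- libraries (SD, n = 3). After 5-FU its genotype difference was -0.89 (SE 0.05, adjusted p = 1.2e-05), and its interaction was -0.59 (adjusted p = 7.3e-05). At rest the lowest called values were those of Foxo1 and Ebf1, factors of B cell development, at -0.75 and -0.71 (adjusted p = 0.0199 and 0.0193). In the same libraries the sum of 8 B cell markers was 24.2 to 32.5 CPM against 41.5 to 49.1 CPM in Tespa1+/+, with 2 of the 4 tested called lower, and the part of B-lineage cells in the list's values was not tested. The 2 genes that were higher after 5-FU, Spib and Vpreb1, were at 3.91 to 8.71 and 14.1 to 24.8 CPM (0.82 and 0.58, adjusted p = 0.0498 and 0.0243).

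With 5-FU, 7 of these 23 genes rose and 8 fell in Tespa1+/+ LSKs, and 8 rose and 8 fell in Tespa1-/- LSKs. Over all genes, 7.95% and 19.4% were called. Flt3 and Dntt, the terminal transferase gene of lymphoid progenitors, fell in Tespa1+/+ LSKs by 0.96 and 0.70 on the log2 scale (adjusted p = 8.8e-06 and 2.0e-05). Rag1, a subunit of the antigen receptor recombinase, rose from 16.3 ± 0.906 to 120.8 ± 7.49 CPM (SD, n = 3; 2.90, adjusted p = 9.1e-07), and Ebf1 rose from 17.2 ± 0.651 to 110.7 ± 1.96 CPM (2.70, adjusted p = 9.1e-07). Of the 8 B cell markers, 4 were called higher in the same libraries and 5 in Tespa1-/- LSKs after 5-FU, and their part in these results was not tested.

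Next to Gata3, 15 T-lineage genes gave 2 that were called in untreated Tespa1-/- LSKs, both higher, and 3 higher and 3 lower after 5-FU. Over all genes, 5.23% were called at rest and 13.1% after 5-FU. Tcf7, which encodes the T cell factor TCF-1, was higher at rest, at 14.2, 14.8 and 12.7 CPM against 6.57, 5.92 and 3.44 CPM in Tespa1+/+ libraries (1.40, SE 0.24, adjusted p = 0.0141), and its interaction of -1.53 was called (adjusted p = 0.0109). NK and innate lymphoid cells are also known to express Tcf7. At rest their marker list summed to 12.9 to 13.4 CPM in Tespa1-/- and 3.47 to 6.09 CPM in Tespa1+/+ libraries, with 1 of the 5 genes tested called higher. The largest part in Tespa1-/- was Il1rl1, at means of 7.48 CPM in Tespa1-/- and 1.84 CPM in Tespa1+/+. Ncr1 and Gzma had means of 0.088 and 0.029 CPM in untreated Tespa1-/- LSKs. The part of such cells in the Tcf7 result was not tested. After 5-FU, Tox was lower at 5.45 ± 1.14 against 12 ± 1.95 CPM (SD, n = 3; -1.14, adjusted p = 0.0119). With 5-FU, 3 of the T-lineage genes were higher and 1 lower in Tespa1+/+ LSKs, and 4 and 4 in Tespa1-/- LSKs, beside calls for 7.95% and 19.4% of all genes. Lck, a kinase of T cell receptor signalling, fell in both genotypes (-0.78 and -1.05, adjusted p = 0.00637 and 0.00117), and Tox fell in Tespa1-/- LSKs (-1.18, adjusted p = 0.00306). Lef1, the relative of Tcf7, rose with 5-FU in both genotypes, from 11.8 ± 6.12 to 77.8 ± 1.78 CPM in Tespa1+/+ (2.74, adjusted p = 7.3e-04) and from 6.15 ± 0.625 to 86.0 ± 1.97 CPM in Tespa1-/- LSKs (3.80, adjusted p = 8.8e-08).

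Of 22 chemokine and homing genes beside Ccr7 and Ccr9, which have 24 entries in the table because Ccl19 and Ccl21a each stand there under 2 identifiers, 14 were tested at rest and 15 after 5-FU. At rest 1 was higher, Cxcr4 (0.37, adjusted p = 0.0104), and 1 was lower, S1pr1, the sphingosine phosphate receptor used to leave tissues (-1.36, adjusted p = 0.0117). After 5-FU 3 were lower, S1pr1 and Ccr2 among them (-0.57 and -0.26, adjusted p = 0.0245 and 0.0459), and the integrin gene Itgb7 was higher (0.51, adjusted p = 0.0124). With 5-FU, 4 of these genes were called higher in Tespa1+/+ LSKs, and 4 higher and 1 lower in Tespa1-/- LSKs. S1pr1 rose in Tespa1-/- LSKs by 1.35 (adjusted p = 0.00255), while Ccr9 fell in the same libraries. In Tespa1+/+ LSKs S1pr1 changed by 0.57 (adjusted p = 0.0598), and its interaction was not called (adjusted p = 0.114). Over all genes, 5.23% were called between the genotypes at rest and 13.1% after 5-FU. With 5-FU, 7.95% were called in Tespa1+/+ and 19.4% in Tespa1-/- LSKs.

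For Cd27, 10 genes of its ligand and signalling chain were examined and 9 tested. Nfkb2, the target of noncanonical NF-kB signalling, was 1 of 3 that were lower in untreated Tespa1-/- LSKs, at 70.9 ± 4.69 CPM against 118 ± 7.36 CPM in Tespa1+/+ (SD, n = 3; -0.72, adjusted p = 0.00128). After 5-FU the 1 gene called was Map3k14, which encodes the NF-kB-inducing kinase, lower at 22.0 ± 1.79 CPM in Tespa1-/- against 31.4 ± 0.467 CPM in Tespa1+/+ LSKs (-0.51, adjusted p = 0.0197). Nfkb2 fell with 5-FU in Tespa1+/+ LSKs by 0.87 on the log2 scale (adjusted p = 2.6e-04), next to the fall of Cd27. The interaction was called for Map3k14 (-0.79, adjusted p = 0.00899) with the sign of Cd27 and for Nfkb2 (0.49, adjusted p = 0.0226) with the other sign. Over all genes, 5.23% were called between the genotypes at rest, 13.1% after 5-FU and 5.01% in the interaction.

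The genes most like each member were those with the highest Pearson correlation of log2(CPM + 1) over the 12 libraries, among 11201 genes with a mean of at least 5 CPM. The 12 libraries fall into 4 groups, so the likeness is mostly one of group means and is a description. Closest to Satb1 was Dntt (r = 0.989) at 685, 607, 417 and 326 CPM in untreated Tespa1+/+, untreated Tespa1-/-, treated Tespa1+/+ and treated Tespa1-/- LSKs. Closest to Notch1 was Ccl3 (r = 0.995) at 103, 76.6, 43.7 and 30.4 CPM, followed by Shisa8 (r = 0.989). Both genes share with their partner a step down with 5-FU in each genotype and lower means in Tespa1-/- LSKs.

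Ikzf3 was most like Tspan33 (r = 0.978), at 3.39, 5.68, 3.00 and 22.2 CPM in the same order of groups, and Ero1l (r = 0.977). Tspan33 and Ikzf3 are thus both low in 3 groups and high in Tespa1-/- LSKs after 5-FU. Cd27 was closest to Gm10709 (r = 0.983) and Atp10a (r = 0.977), Ccr9 to Hspa4 (r = 0.983) and Mtmr9 (r = 0.977), Gata3 to Osbpl8 (r = 0.955) and Ttc39b (r = 0.946), Ikzf1 to Hexim1 (r = 0.958) and Dnaja2 (r = 0.953), and Tcf3 to Dctn2 (r = 0.947) and Prr13 (r = 0.913). Ccr7 had the weakest likeness, to Cmtm4 (r = 0.875) and Il21r (r = 0.815), at 16 to 49 counts of its own in each library.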

How the data were processed

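RNA-seq of sorted LSKs was analysed in 12 libraries, grouped by GEO's labels into Tespa1+/+ and Tespa1-/-, each without treatment and on day 9 of 5-FU at 150 mg/kg. The kit was stranded and selected poly-A RNA, and sequencing was paired-end. The authors deposited counts of reads per gene, without normalization, and FPKM values, which follow from those counts by gene length and library total. The submitters' processing notes name CASAVA 1.8, HISAT2, StringTie, edgeR and GRCm38. Which tool counted reads, and whether it used strand, is not given in the sources used here. No column of samples was left out.

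The test was that of edgeR 4.0.16 in R 4.3.3: filterByExpr with a minimum count of 10, TMM factors, glmQLFit and glmQLFTest on the 6 libraries of each pairwise comparison and on all 12 for the interaction of genotype and treatment. Benjamini-Hochberg adjustment ran over every gene tested, and a gene was called at an adjusted p below 0.05. Each SE is the log2 fold change divided by the square root of the F statistic. The scripts were tested on simulated counts. Totals were 22118154 to 28275079 counts, and the part of depth in the precision of genes with few counts was not tested.

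The 9 members were chosen with earlier results of these data known, and so were the gene lists, so that neither is independent of the data. Named genes are the members, the targeted gene, the 2 genes most like each member and, per list and comparison, up to 2 called genes with the highest and 2 with the lowest log2 fold change. Some genes of the lists are not reported here by name. Of the named genes, the ones described are a choice made after their values were seen. Positions are those of the deposited table, which are the same in GENCODE M21 for all members. Promoters come from RefSeq. Ikzf3 and Ccr7 have no promoter window there. The alternatives replaced 1 choice at a time: the tool (DESeq2 1.42.0), the scaling (RLE, or totals alone), the filter (none, or 10 or more counts in each library), the libraries fitted (all 12, or 1 removed), the design (replicate number as a further factor, a block) and the call rule (the study's unadjusted P below 0.05 with a fold change above 1.5, or that fold change with the adjusted p). Python 3.11.15 ran the other steps, with matplotlib 3.10.9, SciPy 1.17.1, NumPy 2.4.6 and pandas 2.3.3.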

Additional observations from a re-analysis of the deposited data

Results flagged for a closer look

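The genotype difference of 2 members differed between treatments by the interaction test of edgeR over the 12 libraries. For Ikzf3, the Tespa1-/- to Tespa1+/+ difference was 1.15 in untreated LSKs and 4.24 after 5-FU on the log2 scale, and the interaction was 3.10 (adjusted p = 0.0267). Untreated Tespa1+/+ libraries had 4, 19 and 30 counts of Ikzf3, so the size of the untreated difference is known poorly. For Cd27, the difference was -0.21 in untreated LSKs and -0.75 after 5-FU, and the interaction was -0.53 (adjusted p = 0.0232). In the Tespa1-/- libraries after 5-FU, the later neutrophil list summed to 1050.0 to 1057 CPM and the LSK list to 733 to 776 CPM, and the part of other cells in both results was not tested.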

How the results depend on the processing

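Of the 20 fold changes called, 12 kept their call and direction in every alternative fit that tested them at the adjusted p, and over the 268 such fits of the 20, 235 kept the call, 33 lost it and 0 changed direction. The call rules with a fold above 1.5 are not among these fits, and under them Notch1 was not called between the genotypes. The count of members called between the genotypes at rest was 1, and it was 2 with DESeq2, which called 1427 of 17055 genes in place of 892, 0 when a fold above 1.5 was required beside the adjusted p, and 1 to 1 in fits that left out 1 library. After 5-FU it was 4, with 3 when at least 10 counts were required in every library, since Ikzf3 was then not tested, 2 at the study's thresholds, 2 with that fold and the adjusted p, and 3 to 4 without 1 library. For 5-FU in Tespa1+/+ LSKs it was 7, with 4 at the study's thresholds, 4 with that fold and the adjusted p, and 3 to 6 without 1 library. In Tespa1-/- LSKs it was 6, with 5 to 7 without 1 library. For the interaction it was 2, with 1 under the same count requirement, for the same reason, 1 with that fold and the adjusted p, and 0 to 2 without 1 library. Over all genes, the fits without 1 library called 338 to 808 at rest in place of 892, and 1519 to 1710 after 5-FU in place of 2261. For 5-FU they called 783 to 1102 in Tespa1+/+ LSKs in place of 1352, and 2259 to 3060 in Tespa1-/- LSKs in place of 3336. For the interaction they called 573 to 862 in place of 936. Causes other than the untested Ikzf3 and the added fold change threshold were not tested.

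Signs changed only for values that were not called. Ikzf1 after 5-FU, 0.03 as reported, was -4e-04 with library totals. In fits without 1 library, Ikzf1 after 5-FU ran from -0.0127 to 0.0689, Ccr7 from -0.3086 to 0.2906 at rest, from -0.5902 to 0.0938 after 5-FU and from -0.6504 to 0.1346 in the interaction, Tcf3 from -0.0447 to 0.2793 after 5-FU and from -0.1166 to 0.2047 in the interaction, Ikzf3 from -0.1997 to 0.8268 with 5-FU in Tespa1+/+ LSKs, and Ccr9 from -0.2158 to 0.4964 in the interaction.

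The replicate numbers are shared by the groups but did not pair the libraries: deviations of same-numbered libraries from their group means correlated at -0.032 to 0.017. With the replicate number as a block, the count for 5-FU in Tespa1+/+ LSKs was 5 (Ikzf1 at an adjusted p of 0.0651 and Tcf3 at 0.0554), the other counts were 1, 4, 6 and 2 as without it, and Ccr7 at rest was -0.0040. Over all genes, the block gave 956 called for 5-FU in Tespa1+/+ LSKs in place of 1352, and 454 in place of 892 between the genotypes at rest. Genes with under 50 counts a library were Ccr7, Ccr9 after 5-FU and Ikzf3 outside treated Tespa1-/- LSKs. The parts of depth and of the spread between libraries in their intervals were not tested.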
